A study of Mus musculus with 28 samples.

Results

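The genes described here are those of the cytosolic ribosomal proteins, 67 of the 23393 gene symbols that the deposited tables share. They were chosen by symbol: Rpl or Rps with a number, Rplp0 to Rplp2 and Rpsa. The Rps6k kinases and symbols marked -ps as pseudogenes were left out. Members had a mean of at least 1 CPM, a read count divided by the gene count total of its library, over all 28 libraries. Levels of single genes given in later paragraphs use a scaled library total. This limit and the summed marker levels use the unscaled total. The symbol rule matched 84 genes. Of these, 41 large-subunit and 26 small-subunit genes passed the limit, and 17 did not. Just inside the limit were Rpl11 at a mean of 1.12 CPM and Rpl27 at 1.12 CPM, and just outside it were Rpl3 at 0.890 CPM and Rps23 at 0.847 CPM.

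The cytosolic ribosome is built from ribosomal RNA and a set of proteins that are each needed in about equal number of copies. The large subunit forms peptide bonds and carries a stalk of acidic P-proteins that recruits translation factors, and the small subunit decodes the messenger. In vertebrates most ribosomal protein mRNAs begin with a cytosine followed by a run of pyrimidines, the TOP motif, through which the kinase mTORC1 controls their translation, and the liver is an organ that makes large amounts of secreted protein.

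Liver RNA was sequenced from 28 mice of strain 129svj aged 11 to 13 months, 7 animals in each of 4 groups, with a library for each numbered animal. The groups were Sirt6 heterozygotes (HZ) given WY-14643, wild-type (WT) animals given WY-14643, HZ animals given vehicle and WT animals given vehicle. WY-14643 (WY), an agonist of the nuclear receptor PPARα, was given by mouth at 50 mg/kg in 0.5% carboxymethylcellulose (CMC). The vehicle groups received 0.5% CMC alone, and livers were taken after 12 h in all groups. Neither the kind of Sirt6 allele nor the sex of the animals is stated in the labels.

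Libraries held 15795201 to 20020078 gene counts. Sirt6 (GRCm38 chromosome 10), which codes for a histone deacylase, checks the genotype labels. Under WY it stood at 1.29 to 2.29 CPM in HZ and 2.27 to 4.18 CPM in WT livers, a log2 fold change of -1.04 ± 0.16 (SE, edgeR quasi-likelihood test, adjusted p = 0.00721). Under vehicle it stood at 0.882 to 1.38 CPM in HZ and 1.91 to 3.53 CPM in WT livers, a log2 fold change of -0.97 ± 0.17 (adjusted p = 0.00696). Without the 5 libraries named below the vehicle difference was -1.04 and not called. The hepatocyte markers tested, 7 genes including Alb, summed to 45871 CPM or more in every library, as the liver label implies. On the second principal component 5 HZ libraries stood apart from the rest: WY animals 14, 15 and 21 and vehicle animals 30 and 38. Where leaving them out ends a call named below, the value without them is given.

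The stretch around the transcription start is shown for some members whose changes are described below, because a TOP motif, where a gene has one, lies there. Starts were taken from RefSeq promoters on GRCm38.p6, in which 51 of the 67 members were matched. Each line runs 5′ to 3′ on the gene's strand over 30 bases, 10 before the start and 20 from the start on, and capitals mark the longest run of pyrimidines in the window where it holds at least 5. The first 6 belong to genes that rose under WY in WT livers, and the last 3 to genes that did not. Other genes that rose had a shorter run in this window, such as Rpl37a with 3 bases and Rps3 with 2.
Rpl18: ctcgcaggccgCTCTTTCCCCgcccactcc
Rps10: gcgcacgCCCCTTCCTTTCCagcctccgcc
Rplp2: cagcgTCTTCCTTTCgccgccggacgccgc
Rps9: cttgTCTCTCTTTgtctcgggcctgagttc
Rps26: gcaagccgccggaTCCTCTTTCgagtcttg
Rps6: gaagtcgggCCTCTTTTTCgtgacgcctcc
Rpl39: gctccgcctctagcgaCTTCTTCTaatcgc
Rps25: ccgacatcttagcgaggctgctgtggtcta
Rpl10: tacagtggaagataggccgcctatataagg
These windows lie at chr7:45718061-45718090 on the plus strand for Rpl18, chr17:27635225-27635254 on the minus strand for Rps10 and chr7:141447641-141447670 on the plus strand for Rplp2. They lie at chr7:3704031-3704060 on the plus strand for Rps9, chr10:128626487-128626516 on the minus strand for Rps26 and chr4:86857348-86857377 on the minus strand for Rps6. Those of Rpl39, Rps25 and Rpl10 lie at chrX:37085203-37085232 on the minus strand, chr9:44407704-44407733 on the plus strand and chrX:74270806-74270835 on the plus strand.

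A run of at least 8 pyrimidines lay within 30 bases of a start in 30 of the 51 matched members (58.8%), against 25.7% of the 9429 tested genes with a promoter. A C followed by at least 4 pyrimidines exactly at the annotated start was found in 11 members (21.6%), against 3.0% of the tested genes. The letters CGGAAG, the core bound by ETS factors, occurred on either strand of the 300-base promoter in 68.6% of members, against 34.0% of the tested genes. The E-box CACGTG occurred in 11.8% of both. A direct repeat of AGGTCA with 1 base of any kind between its copies, of the kind PPARα binds, was found on either strand in 0 of the 51 members and in 0.0424% of the tested genes. This exact repeat occurred in only 4 of the 9429 tested genes, so 0 of 51 does not show that members lack PPARα sites. TATAAA occurred in 11.8% of members and 9.29% of the tested genes. Members with the pyrimidine run and members without it had medians close to each other: under WY in HZ livers 18 of 30 with a run and 16 of 21 without it rose, with median log2 fold changes of 0.41 and 0.39. In WT livers 25 of 30 and 16 of 21 rose, with medians of 0.55 and 0.49. Of all genes tested 29.3% rose in HZ and 27.4% in WT.

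Members ranged widely in level. Per kilobase of transcript the mean level over all libraries ran from 0.701 CPM per kb for Rpl21 to 422 CPM per kb for Rpl4, with a median of 36.0. Rpl4 alone held 15.0% of the reads of the 67 genes. The counts are of reads that were placed uniquely, and 35.8 to 42.6% of all reads in a library were not. Many members have processed pseudogenes: at the median 52.1% of the 50-base stretches of a member's transcript occurred in another gene of the annotation, against 71.0% for the 17 genes under the limit. Rpl26, among those under the limit, had 1 read in all 28 libraries. How far shared sequence lowers these counts was not tested, and levels of different members are compared here only as unique reads.

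WY raised most ribosomal protein transcripts in both genotypes, and the group as a whole took a larger share of the reads. The 67 genes summed to 0.476 ± 0.0381% of gene counts in HZ livers under WY, against 0.361 ± 0.0322% in HZ livers under vehicle (SD, n = 7). In WT livers they summed to 0.526 ± 0.0229% under WY, against 0.373 ± 0.0260% under vehicle. All 7 WY libraries were above all 7 vehicle libraries in each genotype, with 0.416 to 0.527% in HZ under WY, 0.494 to 0.559% in WT under WY, 0.311 to 0.408% in HZ under vehicle and 0.337 to 0.415% in WT under vehicle. A change in the share of reads is relative to all other transcripts. In bulk liver, fewer cells of a type and less RNA per cell cannot be told apart.

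**Figure D1:**
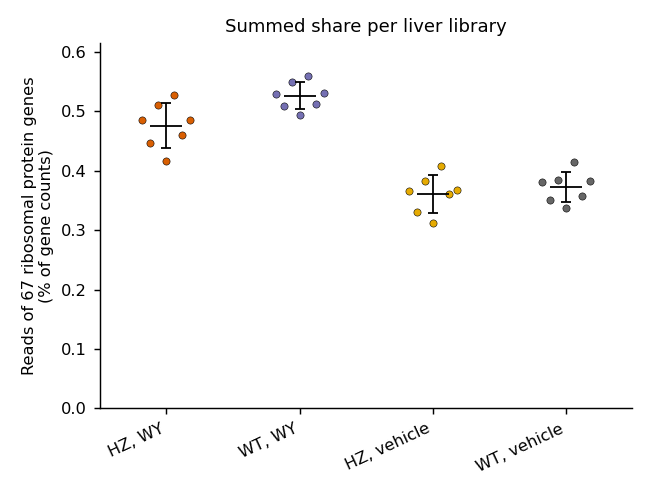
Share of gene counts (%, vertical axis from 0) held by the 67 ribosomal protein genes in each liver library, by group; points are animals, bars the mean and SD of 7. In each genotype the WY libraries lie above the vehicle libraries, and under WY the HZ mean of 0.476% is below the WT mean of 0.526%.

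In HZ livers 47 of the 67 members rose under WY by edgeR's quasi-likelihood test at an adjusted p below 0.05, or 70.1%, against a background of 29.3% of the 12607 genes tested. Of the members 0 fell, against a background of 26.4%. The median log2 fold change was 0.42 over the members and 0.01 over all genes. Without the 5 outlying HZ libraries 43 rose and 0 fell, with a median of 0.42. In WT livers 56 rose, 83.6% against a background of 27.4%, and 2 fell, against a background of 26.7%, with a median of 0.53 over the members and -0.02 over all genes. With the 5 outlying HZ libraries left out of the fit, 56 rose and 0 fell in WT. The 46 members that rose in both genotypes were 97.9% of the HZ calls and 82.1% of the WT calls. In 25 members all HZ animals under WY were above all HZ animals under vehicle, 37.3% against a background of 12.6%. In WT this held for 38 members, 56.7% against a background of 15.7%. Short transcripts rose more often than others under WY, and ribosomal protein transcripts are short. With a trend on transcript length removed, 38 rose and 6 fell in HZ, and 41 rose and 7 fell in WT. The medians were then 0.23 in HZ and 0.29 in WT, against -0.0091 and -0.015 over all genes. The background shares above are from the fit with the trend left in, so these counts are not compared with them.

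**Figure D2:**
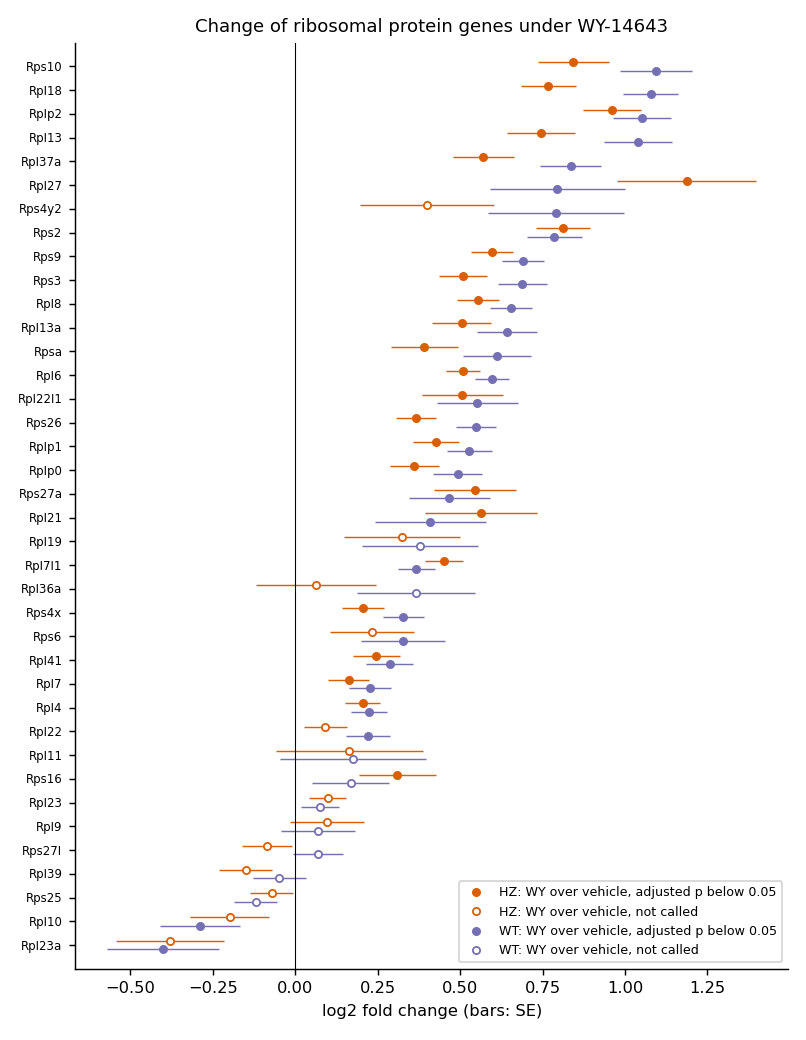
Log2 fold change of WY over vehicle (horizontal axis, bars SE) for 38 ribosomal protein genes named in the text, ranked by the WT value, with HZ above WT for each gene; filled points have an adjusted p below 0.05. Most points lie right of 0, with WT values between 1.09 for Rps10 and -0.40 for Rpl23a.

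**Figure D3:**
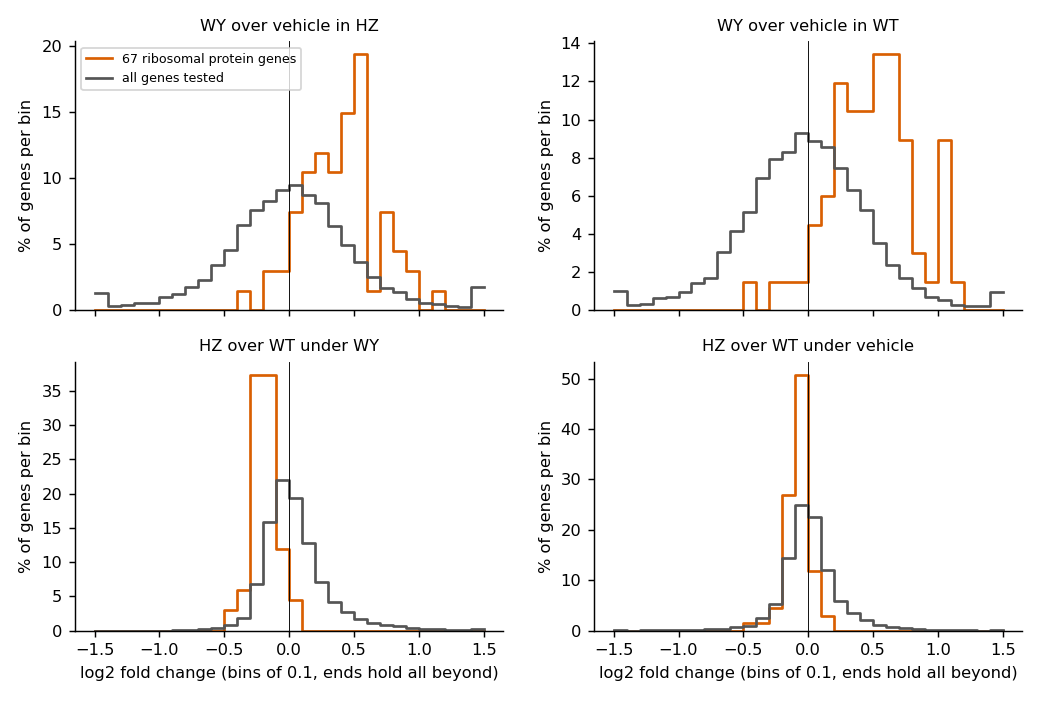
Share of genes (%) per bin of 0.1 in log2 fold change, for the 67 ribosomal protein genes and for all 12607 genes tested, in 4 comparisons. The ribosomal protein genes lie to the right of all genes in both WY comparisons (medians 0.42 in HZ and 0.53 in WT) and to the left in HZ over WT under WY (median -0.19).

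In the large subunit 27 of 41 members rose in HZ and 33 rose in WT. Rpl18 (chromosome 7, 45715457 to 45720836, plus strand) codes for a core protein of the subunit and was the member with the smallest p in WT. In HZ livers it had 24.3, 25.5 and 32.1 CPM as lowest, median and highest value under WY, against 13.2, 16.3 and 18.4 CPM under vehicle. In WT livers it had 29.7, 33.8 and 41.2 CPM under WY, against 13.8, 17.2 and 17.6 CPM under vehicle. The groups did not overlap in either genotype, and the log2 fold change was 0.77 ± 0.08 in HZ (adjusted p = 8.54e-09) and 1.08 ± 0.08 in WT (adjusted p = 5.38e-11).

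Rpl6 (0.51 ± 0.05 in HZ and 0.60 ± 0.05 in WT), Rpl8 (0.56 ± 0.06 in HZ and 0.65 ± 0.06 in WT) and Rpl37a (0.57 ± 0.09 in HZ and 0.84 ± 0.09 in WT) rose without overlap in both genotypes too. Rpl8 lies close to the peptidyl transferase centre.

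Rpl13 rose by 0.75 ± 0.10 in HZ and 1.04 ± 0.10 in WT, but 80.3% of its 50-base stretches occur in other genes. Rpl27, which had a mean of 1.12 CPM, had the largest rise in HZ, at 1.19 ± 0.21, with 1.25 to 1.64 CPM under WY and 0.261 to 0.985 CPM under vehicle. In WT the rise of Rpl27 was 0.79 ± 0.20. Rpl13a, which leaves the ribosome after interferon stimulation and silences some inflammatory mRNAs in human and mouse myeloid cells, rose by 0.50 ± 0.09 in HZ and 0.64 ± 0.09 in WT.

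The highest member, Rpl4 (chromosome 9, 64173375 to 64178666, plus strand), rose by less than most. It had 613, 682 and 700 CPM in HZ under WY, against 499, 594 and 668 CPM in HZ under vehicle. In WT it had 706, 711 and 751 CPM under WY, against 576, 623 and 648 CPM under vehicle. The log2 fold changes were 0.20 ± 0.05 in HZ and 0.22 ± 0.05 in WT, both called, and with the length trend removed they were 0.050 and 0.026 and not called. Rpl41, which codes for the smallest protein of the ribosome, rose by 0.25 ± 0.07 in HZ and 0.29 ± 0.07 in WT, and these values turned to -0.0093 and -0.046 with the length trend removed.

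The 3 genes of the stalk rose together in both genotypes. Rplp2 (chromosome 7, 141447370 to 141451585, plus strand), an acidic P-protein, had 46.3, 61.4 and 72.4 CPM in HZ under WY, against 25.3, 30.0 and 36.0 CPM in HZ under vehicle. In WT it had 56.6, 67.7 and 75.7 CPM under WY, against 29.7, 31.9 and 35.2 CPM under vehicle. No WY value reached down to a vehicle value, and the log2 fold change was 0.96 ± 0.09 in HZ (adjusted p = 5.07e-10, the smallest p of a member in HZ) and 1.05 ± 0.09 in WT (adjusted p = 1.96e-10). Its partner Rplp1 rose by 0.43 ± 0.07 in HZ (0.091 and not called with length and GC trends removed) and 0.53 ± 0.07 in WT, and Rplp0, the stalk's base, rose by 0.36 ± 0.08 in HZ and 0.49 ± 0.08 in WT.

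In the small subunit 20 of 26 members rose in HZ and 23 rose in WT, and 0 fell in either. Rps9 (chromosome 7, 3703993 to 3706897, plus strand), an early-assembling protein, had 148, 167 and 189 CPM in HZ under WY, against 101, 105 and 126 CPM in HZ under vehicle. In WT it had 170, 179 and 199 CPM under WY, against 102, 116 and 122 CPM under vehicle. Neither pair of groups overlapped, and the log2 fold change was 0.60 ± 0.06 in HZ (adjusted p = 7.95e-09) and 0.69 ± 0.06 in WT (adjusted p = 8.84e-10). Rps2, at the mRNA entry channel, rose by 0.81 ± 0.08 in HZ and 0.79 ± 0.08 in WT. Rps10 rose by 0.84 ± 0.11 in HZ and 1.09 ± 0.11 in WT. Rps3, which also lines the entry channel and shares only 2.96% of its 50-base stretches with other genes, rose by 0.51 ± 0.07 in HZ and 0.69 ± 0.07 in WT.

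Rps26 (chromosome 10, 128624534 to 128626747, minus strand) sits at the mRNA exit. It had 78.4, 86.2 and 96.0 CPM in HZ under WY, against 57.0, 68.7 and 77.9 CPM in HZ under vehicle. In WT it had 99.7, 105 and 117 CPM under WY, against 64.0, 74.8 and 76.7 CPM under vehicle. Each genotype's treatment groups stood apart, with a log2 fold change of 0.37 ± 0.06 in HZ and 0.55 ± 0.06 in WT. Rpsa, known also as the laminin receptor precursor, rose by 0.39 ± 0.10 in HZ and 0.61 ± 0.10 in WT. Rps27a, made as a fusion with ubiquitin, rose by 0.54 ± 0.12 in HZ and 0.47 ± 0.12 in WT. Rps6, the subunit protein phosphorylated by the S6 kinases, had 2.08, 3.11 and 4.18 CPM in HZ under WY, against 1.89, 2.72 and 2.93 CPM in HZ under vehicle. Its log2 fold change was 0.23 ± 0.13 in HZ (adjusted p = 0.120) and 0.33 ± 0.13 in WT (adjusted p = 0.0313), and 84.6% of its 50-base stretches are shared. The WT rise of Rps6 was not called without WT vehicle animal 32 or 74 or WT WY animal 6 or 20 (0.30 to 0.31), or with the length trend removed (0.063). That trend also ended the WT call of Rps27a (0.17), and the clock score ended the HZ call of Rpsa (0.27).

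**Figure D4:**
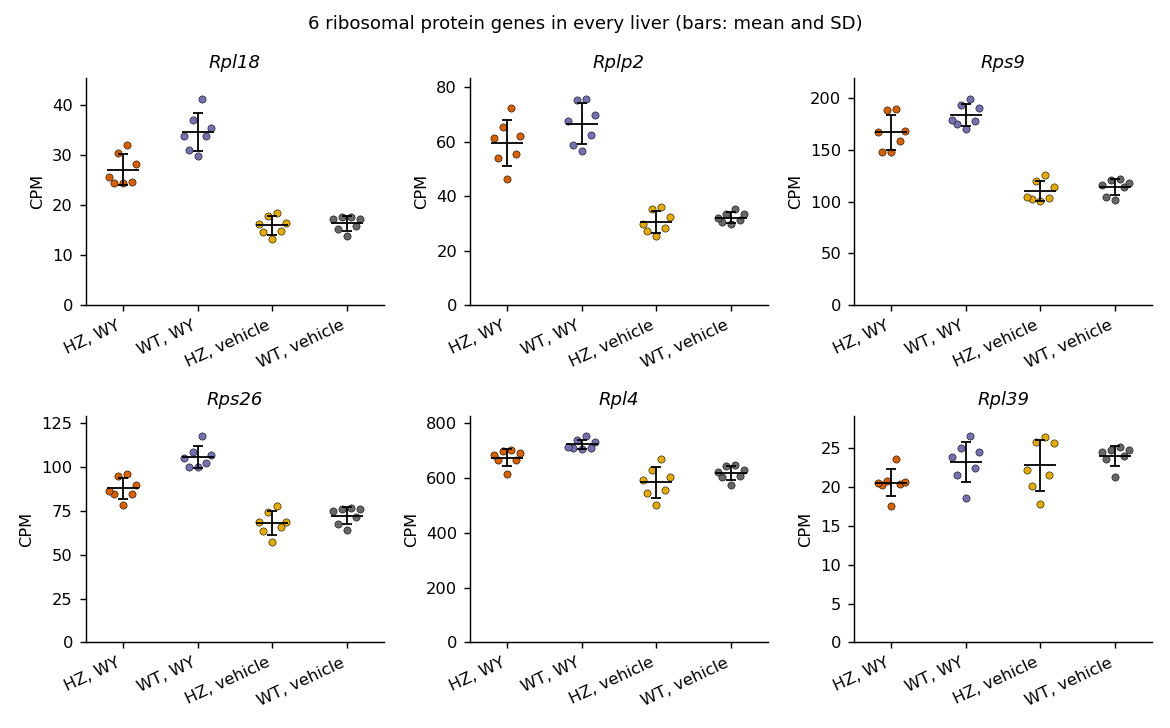
CPM (vertical axes from 0) of Rpl18, Rplp2, Rps9, Rps26, Rpl4 and Rpl39 in every liver, by group; points are animals, bars the mean and SD of 7. Rpl18 and Rplp2 stand about as far above vehicle as their log2 fold changes of 0.77 to 1.08 say, while the groups of Rpl39 overlap throughout.

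Not every member rose. The 10 called higher in neither genotype, listed here for their values, were Rpl10, Rpl11, Rpl19, Rpl23, Rpl23a, Rpl36a, Rpl39, Rpl9, Rps25 and Rps27l. Rpl39, at the exit tunnel, had 17.6, 20.5 and 23.6 CPM in HZ under WY, against 17.8, 22.2 and 26.5 CPM in HZ under vehicle. In WT it had 18.6, 23.9 and 26.5 CPM under WY, against 21.3, 24.5 and 25.1 CPM under vehicle. The groups overlapped, with log2 fold changes of -0.15 ± 0.08 in HZ (adjusted p = 0.118) and -0.05 ± 0.08 in WT (adjusted p = 0.633).

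Rps25 had log2 fold changes of -0.07 ± 0.07 in HZ and -0.12 ± 0.07 in WT, neither called. Rpl23a and Rpl10 fell in WT, by 0.40 ± 0.17 (adjusted p = 0.0458) and 0.29 ± 0.12 (adjusted p = 0.0442), and had -0.38 ± 0.17 (adjusted p = 0.0513) and -0.20 ± 0.12 (adjusted p = 0.162) in HZ. Both rest on few reads, at 1.74 and 2.57 CPM over all libraries, and share over 85% of their stretches with other genes. Neither fall was called by DESeq2, or without WT vehicle animal 31 or 37 or WT WY animal 6, 11, 20 or 25. That of Rpl10 was also lost without WT vehicle animal 74 or WT WY animal 24, and that of Rpl23a without WT vehicle animal 32 or WT WY animal 10. The values were then -0.29 to -0.19 for Rpl10 and -0.39 to -0.30 for Rpl23a. Both falls were also not called without the 5 outlying HZ libraries (-0.28 for Rpl10 and -0.40 for Rpl23a). A further 10 members were called in WT and not in HZ, and Rps16, chosen after its values were seen, was called in HZ (0.31 ± 0.12) and not in WT (0.17 ± 0.12). The HZ call of Rps16 was lost without HZ vehicle animal 34 or 71 or HZ WY animal 14 (0.27), and without the 5 outlying HZ libraries (0.24). It was also lost with limma (0.24) and with the length trend removed (0.11). The same held with the trend on median coding transcript length (0.20) or the length and GC trends (0.19) removed.

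Several members have paralogues within the family. Rpl22l1, the paralogue of Rpl22, rose by 0.51 ± 0.12 in HZ and 0.55 ± 0.12 in WT, while Rpl22 had 0.09 ± 0.07 in HZ (adjusted p = 0.246) and rose by 0.22 ± 0.07 in WT. Rpl7l1, a paralogue of Rpl7 with a role in pre-ribosome assembly, rose by 0.45 ± 0.06 in HZ and 0.37 ± 0.06 in WT, while Rpl7 rose by 0.16 ± 0.06 in HZ and 0.23 ± 0.06 in WT. The HZ rise of Rpl7 was not called by DESeq2 (0.14) or limma (0.10), without the 5 outlying HZ libraries (0.10), or without HZ vehicle animal 38 or 71 or HZ WY animal 14 (0.12 to 0.14). With the length trend removed Rpl7 was called in neither genotype (0.013 in HZ and 0.037 in WT), and Rpl22 was not called in WT (0.096). Rps27l, a paralogue of Rps27 and a p53 target, had -0.09 ± 0.08 in HZ and 0.07 ± 0.08 in WT, neither called, and -0.28 in WT with the length trend removed (adjusted p = 6.92e-05). The difference between a gene and its paralogue was not tested. The tables' Rps4y2 is listed as Rps4l in the annotation, a transcribed pseudogene on chromosome 6. It met the symbol rule and is counted among the 67 members. It had 0.40 ± 0.20 in HZ (adjusted p = 0.0990) and rose by 0.79 ± 0.21 in WT, while Rps4x rose by 0.21 ± 0.06 in HZ and 0.33 ± 0.06 in WT. The WT rise of Rps4y2 was 0.40 and not called with the length and GC trends removed. The HZ value of Rps4x turned to -0.012 with the length trend removed, which also ended its WT call (0.040). Without the 5 outlying HZ libraries the HZ value of Rps4x was 0.16 and not called. Rpl10l, Rpl39l and Rpl3l, known mainly from testis and muscle, were under the limit, with 0, 6 and 65 reads in all libraries.

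Under WY, HZ livers had lower fitted levels than WT livers for nearly all members, and few differences passed the test. By edgeR 3 members were lower in HZ and 0 higher, 4.48% against a background of 1.74% lower. The fitted change was below 0 in 64 of 67 members, against a background of 48.0%, and 38 had an unadjusted p below 0.05 with a lower level, 56.7% against a background of 11.4%. The median log2 fold change was -0.19 over the members and 0.01 over all genes. Short transcripts were called lower in HZ more often than others. In the shortest of 4 bins of equal size by transcript length, 2 of 57 members were lower, against a background of 4.34% in that bin. The medians in that bin were -0.18 over the members and -0.09 over all genes. Members share their libraries, so these counts are a description.

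The 3 called were Rps26 (log2 fold change -0.27 ± 0.06, adjusted p = 0.0187), Rpl18 (-0.35 ± 0.08, adjusted p = 0.0219) and Rpl13 (-0.41 ± 0.10, adjusted p = 0.0285). For Rps26 all 7 HZ animals, at 78.4 to 96.0 CPM, were below all 7 WT animals, at 99.7 to 117 CPM. For Rpl18, 5 HZ animals were below every WT animal, with 24.3 to 32.1 CPM in HZ and 29.7 to 41.2 CPM in WT. Rpl13 had 5.36 to 8.28 CPM in HZ and 7.51 to 11.0 CPM in WT, with overlap. Rpl4 was the other member without overlap, at 613 to 700 CPM in HZ and 706 to 751 CPM in WT, and its change of -0.10 ± 0.05 was not called (adjusted p = 0.253). These 2 of 67 compare with a background of 0.896% of genes in which all HZ animals were lower.

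The number called depended on the libraries and the tool. It was 0, with a median of -0.15, when the 5 outlying HZ libraries were left out. Of all genes, 0.378% were then called in either direction. Without these libraries the values were -0.25 for Rps26, -0.35 for Rpl18 and -0.34 for Rpl13. The number of members called was 0 without HZ animal 21 (0.846% of all genes) or WT animal 19 (0.584%). It was 1 without HZ animal 15 (0.996%), 5 without HZ animal 14 (2.79%) and 13 without HZ animal 2 (7.71%). Rpl13 was lost without HZ animal 15 or 21 or WT animal 10, 11 or 19, with values of -0.40 to -0.35. Rps26 was lost with the length trend removed (-0.13). DESeq2 called 19 lower, where 8.91% of all genes were called in either direction, and limma 13, where 7.41% were. Summed marker levels of HZ and WT livers under WY overlapped in the lists given next, none of which had a gene called. The acute phase list summed to 14484 CPM in HZ and 10691 CPM in WT on average. Of its 8 genes 0 were called, and their median log2 fold change in HZ against WT was 1.99. The clock list summed to 361.6 to 558 CPM in HZ and 447.6 to 675 CPM in WT, with 0 of 13 called (median -0.24). Macrophage markers summed to 335 to 879 CPM in HZ and 278 to 438 CPM in WT, with 0 of 10 called (median 0.56). Neutrophil and monocyte markers summed to 5.20 to 25.7 CPM in HZ and 3.92 to 5.72 CPM in WT. Of the 5 tested 0 were called (median 1.56). The part of these lists in the ribosomal protein values was not tested.

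Under vehicle 0 of 67 members differed between HZ and WT by edgeR, against a background of 2.07% of genes. With an unadjusted p below 0.05, 8 were lower in HZ and 0 higher, 11.9% against a background of 10.9%. DESeq2 called 1 (4.13% of all genes in either direction) and limma called 0. EdgeR called 1 without HZ animal 34 (2.53%), WT animal 31 (4.81%) or WT animal 37 (3.58%). The member with the smallest p was Rpl7l1, with 57.8, 66.6 and 73.0 CPM in HZ and 69.2, 72.6 and 89.0 CPM in WT, a log2 fold change of -0.18 ± 0.06 (adjusted p = 0.0818). Next were Rps25 (-0.19 ± 0.07, adjusted p = 0.124) and Rps27a (-0.32 ± 0.13, adjusted p = 0.179). The median over the members was -0.07, and 57 of 67 were below 0, against a background of 50.4%.

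Whether WY acted differently in the genotypes was tested by the interaction, the WY change in HZ minus that in WT. EdgeR called 0 of 67 members, against a background of 0.0% of genes, and DESeq2 and limma also called 0 members. An unadjusted p below 0.05 was found for 3 members (4.48%, against a background of 3.36% with a smaller change), all with a smaller WY change in HZ: Rpl18 (-0.31 ± 0.12, adjusted p = 0.430), Rps26 (-0.18 ± 0.09, adjusted p = 0.520) and Rpl37a (-0.27 ± 0.13, adjusted p = 0.532). The fitted WY change was smaller in HZ for 53 of the 67, against a background of 45.8% of genes, with a median difference of -0.09. In the shortest of 4 bins by transcript length, the median difference was -0.09 over 57 members and -0.04 over all genes. The WY and genotype comparisons share libraries, so their member values are not independent.

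Within the family the size of the WY change went with base composition. Across members Spearman's rho between the WY change and the share of G and C in the transcript was 0.45 in HZ and 0.47 in WT (n = 67 genes). Over 12536 tested genes it was 0.37 in HZ and 0.41 in WT. The points share the same libraries, and genes are not independent replicates. In the bin of genes richest in G and C, of 4 bins of equal size, 12 of 13 members rose in HZ, where 46.0% of all genes did, and 13 of 13 rose in WT, where 46.1% of all genes did. With a trend on GC content removed 47 rose and 0 fell in HZ, and 53 rose and 0 fell in WT. The shares of all genes given here are from the fit with the trend left in, so these counts are not compared with them.

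Most members have short transcripts. Of the 67, 57 were in the shortest of 4 bins of equal size, with a longest transcript of at most 2192 bases. In that bin 40 of the 57 rose in HZ, where 40.4% of all genes did, and 47 rose in WT, where 44.2% did. Across members rho between length and the WY change was 0.00 in HZ and 0.02 in WT, against -0.24 and -0.34 over all genes. By shared sequence, in the 10 members with under 25% of shared stretches the median change was 0.41 in HZ and 0.47 in WT, and in the 15 with 75% or more it was 0.32 in HZ and 0.49 in WT. In HZ 6 of the 10 and 7 of the 15 rose, against 20 of 23 with 25 to 50% of shared stretches and 14 of 19 with 50 to 75%. In WT 8 of the 10 and 10 of the 15 rose, and both falls were among the 15. The 15 had a median level of 2.77 CPM, against 107 CPM for the 10.

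**Figure D5:**
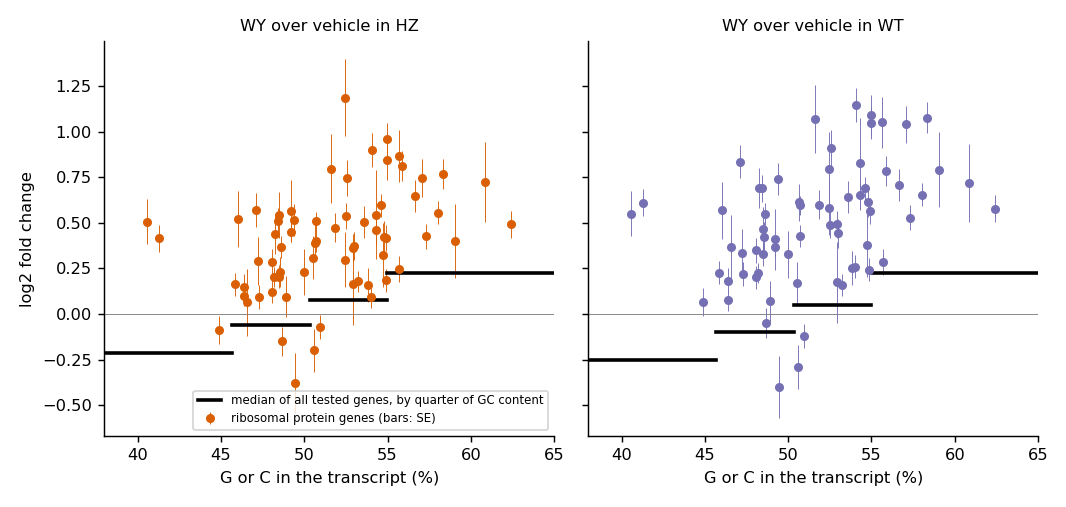
Log2 fold change of WY over vehicle (vertical axis, bars SE) against the G or C content of the transcript (%, horizontal axis) for the 67 ribosomal protein genes in HZ and WT livers; black lines are the medians of all tested genes in 4 equal bins of GC content, the outer bins drawn only over the range shown. The members lie mostly above the lines and rise with GC content, with rho of 0.45 in HZ and 0.47 in WT.

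Over all genes tested 29.3% rose and 26.4% fell under WY in HZ, and 27.4% rose and 26.7% fell in WT. The lists below, of genes that make, use or regulate ribosomes, are read against these shares. Of 4 ribosomal proteins outside the symbol rule 2 rose in HZ and 4 in WT. Fau, which codes for Rps30 fused to a ubiquitin-like protein, rose by 0.92 ± 0.11 in HZ and 0.83 ± 0.11 in WT. Gnb2l1, now Rack1, a scaffold on the small subunit, rose by 0.47 ± 0.06 in HZ and 0.56 ± 0.06 in WT. Of 55 ribosome biogenesis factors 48 rose in HZ and 49 in WT and 0 fell, with medians of 0.47 in HZ and 0.43 in WT. Eif6, which keeps free large subunits from joining small ones, rose by 0.78 ± 0.06 in HZ and 0.91 ± 0.06 in WT. Mrto4, which holds the place of the stalk during assembly, rose by 1.21 ± 0.09 in HZ and 1.09 ± 0.09 in WT, and Nhp2, of the box H/ACA particles, by 1.06 ± 0.09 in HZ and 1.05 ± 0.09 in WT. Under WY 3 of the 55 were lower in HZ than in WT, against a background of 1.74%: Npm1 (-0.32 ± 0.06), Rsl24d1 (-0.22 ± 0.06) and Rrp9 (-0.29 ± 0.08). That number was 0 without the 5 outlying HZ libraries (Npm1 -0.28, Rsl24d1 -0.21 and Rrp9 -0.25), 9 with DESeq2, 8 without HZ animal 2 and 1 without HZ animal 15 or 21 or WT animal 6, 11, 19, 20 or 24. The share of all genes called in either direction was 0.378% without the 5 libraries, 8.91% with DESeq2 and 7.71% without HZ animal 2. Under WY Npm1 had 0.02 ± 0.06 in HZ (adjusted p = 0.819) and rose by 0.24 ± 0.06 in WT. With the length trend removed it fell in HZ (-0.13, adjusted p = 0.0323) and was not called in WT (0.058).

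Of 15 genes of RNA polymerase I and its factors, which transcribe ribosomal RNA, 12 rose and 0 fell in HZ, and 12 rose and 1 fell in WT. Of 35 initiation factors 24 rose and 3 fell in HZ, and 26 rose and 3 fell in WT. Eif3m, of the scaffold complex eIF3, rose by 0.65 ± 0.06 in HZ and 0.67 ± 0.06 in WT, and was lower in HZ than in WT under WY (-0.27 ± 0.06, adjusted p = 0.0167) and under vehicle (-0.25 ± 0.06, adjusted p = 0.0288). The vehicle call was lost without the 5 outlying HZ libraries (-0.17), and without HZ animal 30 or 38 or WT animal 29, 32 or 74 (-0.24 to -0.21). Of 10 elongation and termination factors 6 rose in HZ and 5 in WT, among them Eef1b2 (0.52 ± 0.06 in HZ and 0.58 ± 0.06 in WT). Of 3 partners of the nascent chain or of TOP control, Btf3 and Tpt1 rose in both genotypes but with the length trend removed were called in neither (Btf3 0.030 in HZ and 0.027 in WT, Tpt1 0.096 in HZ and 0.068 in WT), and Naca had -0.02 ± 0.06 in HZ and 0.05 ± 0.06 in WT.

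Regulators were mixed. Of 20 mTORC1 and TOP mRNA regulators 9 rose and 9 fell in HZ, and 8 rose and 7 fell in WT. Akt1s1, which codes for an mTORC1 inhibitor, rose by 0.57 ± 0.07 in both genotypes, and Tsc1, a brake on mTORC1, fell by 0.52 ± 0.07 in HZ and 0.67 ± 0.07 in WT. Of 9 tested genes of the Myc network 1 rose and 4 fell in each genotype. Myc, which drives ribosome biogenesis genes, rose by 1.19 ± 0.39 in HZ (adjusted p = 0.0113) and 1.85 ± 0.38 in WT (adjusted p = 0.000214). The HZ rise was 1.00 and not called without the 5 outlying HZ libraries, and 0.93 and not called with the clock score as a covariate. Its antagonist Mxi1 fell by 0.51 ± 0.07 in HZ and 0.42 ± 0.07 in WT. Of 7 small nucleolar RNA host genes 2 rose and 1 fell in HZ, and 4 rose in WT. Gas5, whose RNA begins with a TOP motif, rose by 0.27 ± 0.06 in HZ and 0.44 ± 0.06 in WT. With the trend on median coding transcript length removed its HZ value was 0.13 and not called.

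Other values moved with treatment. Of 7 hepatocyte markers 5 fell under WY in each genotype, among them Cps1, and 0 rose. Of all genes tested 26.4% fell in HZ and 26.7% in WT. They summed to 45871 to 80706 CPM in HZ under WY, against 74219 to 106310 CPM in HZ under vehicle, and to 67093 to 75073 CPM in WT under WY, against 79755 to 104080 CPM in WT under vehicle. Reads in no gene made up 7.11 ± 0.469% in HZ under WY, against 8.43 ± 0.418% in HZ under vehicle, and 6.75 ± 0.321% in WT under WY, against 8.45 ± 0.114% in WT under vehicle (SD, n = 7). The summed share of the ribosomal protein genes was also taken without the 20 genes of highest count in the totals. In HZ it was then 0.621% under WY and 0.457% under vehicle, higher by 0.164 percentage points. In WT it was 0.689% under WY and 0.481% under vehicle, higher by 0.209. With those genes the differences were 0.115 in HZ and 0.153 in WT, from lower vehicle shares, so the points are not on one scale. The part of these values in the rise of the ribosomal protein genes was not tested. The vehicle and WY libraries were deposited as separate tables, and anything else that differed between those sets of libraries and the treatment cannot be told apart.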

How the data were processed

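Livers were frozen, RNA was extracted with Trizol and libraries were made with a NEBNext Ultra kit, per the labels. The authors deposited raw counts of reads per gene symbol, a table for the 14 vehicle and a table for the 14 WY libraries. STAR 2.5.0a, HTSeq 0.6.1p1, mm10 and DESeq2 1.18.1 are named in the submitters' processing notes. No source names the annotation or whether strand was used, so overlapping and antisense genes may share reads. The 5 HTSeq summary rows (reads without a unique place, 35.8 to 42.6% of a library; reads outside genes, 6.35 to 9.08%) and 25 and 27 rows with date-like names in the vehicle and WY tables were left out of totals and tests.

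Counts were filtered by filterByExpr (12607 genes), normalised by TMM and tested in edgeR 4.0.16 (R 4.3.3) with robust quasi-likelihood fits, a mean per group over all 28 libraries (24 residual degrees of freedom) and 5 contrasts. The Benjamini-Hochberg threshold was 0.05 over all genes tested. Each SE was derived from the fold change and its F statistic. Alternatives were DESeq2 size factors, TMM without the members, DESeq2 1.42.0, limma 3.58.1 with voom quality weights, no filter, a limit of 5 CPM on the mean, fits of only the groups compared, a term for animals 71 to 78, a clock gene score, trends on transcript length, and leaving out libraries. Trends on median coding transcript length, on GC content, and on length and GC content together were added after seeing the data.

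Members and gene lists were chosen with earlier results of these data known. Members named in the text are those with the smallest p, the largest changes, and the highest and lowest levels, and a set chosen by role. Some members that meet this rule are not reported here by name. Positions, lengths and GC content are from GENCODE M21 on GRCm38, promoters from RefSeq on GRCm38.p6. Replicate spread is between separately numbered animals.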

Additional observations from a re-analysis of the deposited data

Results flagged for a closer look

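In 7 of 156 groups of 7 animals, 4.49%, the highest or lowest animal of a named member lay far from the other 6, and chance flags about 1 in 20 groups. In HZ livers under WY, animal 21 was low for Rpl13 at 5.36 CPM (others 7.12 to 8.28) and for Rpl4 at 613 CPM (others 665 to 700). Animal 21 is among the libraries that stood apart, and the fall of Rpl13 in HZ against WT under WY was not called without it. In the same group, animal 5 was high for Rpl12 at 3.11 CPM (others 2.18 to 2.55), and animal 2 was high for Rpl36 at 3.45 CPM (others 1.61 to 2.08). In WT livers under WY, animal 19 was high for Rpl12 at 6.66 CPM (others 2.15 to 3.33). In WT livers under vehicle, animal 74 was low for Rpl39 at 21.3 CPM (others 23.6 to 25.1) and for Rpl6 at 26.5 CPM (others 29.6 to 31.8).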

How the results depend on the processing

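No paired analysis was possible because no animal number occurs in more than 1 group. In HZ against WT under WY, the members called are given with the share of all genes called in either direction. They were 11 with DESeq2 size factors (5.42%), 19 with DESeq2 (8.91%) and 13 with limma (7.41%). They were 7 with the clock score (8.87%), 16 with the GC trend removed (6.25%) and 0 without the 5 outlying HZ libraries (0.378%). Leaving out 1 library gave 0 to 13 members (median log2 fold change -0.21 to -0.15). In HZ against WT under vehicle, DESeq2 called 1 (4.13% of all genes) and leaving out 1 library gave 0 to 1 (median -0.10 to -0.04). For WY in HZ, the median became 0.23 with the length trend removed, 0.28 with the trend on median coding transcript length removed and 0.20 with the length and GC trends removed, and leaving out 1 library gave 44 to 55 calls and medians of 0.38 to 0.45. For WY in WT, the medians were 0.29, 0.35 and 0.29 in the same order, and leaving out 1 library gave 53 to 59 calls and medians of 0.50 to 0.55. With the length and GC trends removed, 37 members rose and 4 fell in HZ, and 42 rose and 3 fell in WT. The median over all genes was then -0.011 in both genotypes. Of the ribosomal proteins outside the symbol rule, 2 were called in WT with either length trend, or the length and GC trends, removed. Of the nascent chain and TOP control partners, 1 was called in WT with the length trend removed, and 0 in HZ with it or the length and GC trends removed. Of the snoRNA host genes 2 were called in WT with the coding length trend removed. Of the elongation factors 8 were called in WT with the GC, or length and GC, trends removed, and 10 in HZ with both removed. Biogenesis factors called in HZ against WT under WY were 6 with DESeq2 size factors, 9 with DESeq2, 7 with limma, 1 with no filter, 13 with the clock score, 1 with the coding length trend removed, 8 with the GC trend removed, 0 without the 5 outlying HZ libraries and 1 to 8 when leaving out 1 library. The shares of all genes given above for the members hold for the same fits of these factors. The interaction gave 0 calls under every alternative run (median -0.13 to -0.06 when leaving out 1 library).

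The summed share under WY exceeded vehicle by 0.164 percentage points in HZ and 0.209 in WT without the 20 genes of highest count. As a share of all reads in the table it did so by 0.0726 in HZ and 0.0881 in WT, from 0.182% and 0.188% under vehicle. The totals differ, so these points are not on one scale. Leaving out 1 library gave differences of 0.106 to 0.125 in HZ, 0.148 to 0.161 in WT, -0.0588 to -0.0402 for HZ against WT under WY and -0.0196 to -0.00345 under vehicle. The log2 fold change of Rpl41 turned to -0.0093 in HZ and -0.046 in WT with the length trend removed, and to -0.056 in HZ and -0.039 in WT with the length and GC trends removed. With the length trend removed Rps4x turned to -0.012 in HZ Npm1 to -0.13 in HZ and Rps27l to -0.28 in WT. The cause was not tested. Members with few unique reads, such as Rpl11 and Rpl27 at about 1 CPM, have the widest errors, and for these a missed call does not show that levels were alike.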
